A study of Mus musculus with 9 samples.

Results

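Antiviral restriction factors are host proteins that stop a virus inside the cell, and the 9 measured here block entry, replication, release or the supply of nucleotides. The members were Ifitm1, Ifitm2 and Ifitm3 for entry, Mx1 and Mx2 for replication, Bst2 for release, and Rsad2, Cmpk2 and Samhd1 for nucleotides. Probe sets were taken by these symbols in the array annotation, a rule that uses no measured value. The list of members itself was chosen with earlier results of these data known. The members are 9 of the 18193 genes that the array annotation names alone on at least 1 probe set. Their symbols stand on 16 probe sets, 14 bright enough to be tested, and every member kept at least 1 probe set among the 13331 genes tested.

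RNA came from brain tissue of adult male, immunocompetent BALB/c mice, taken around the injection sites 2 days after stereotaxic injection into both striata, with 3 mice and 3 arrays in each of 3 groups. The HS group received BV-HSVtk, a baculoviral vector, after purification by high-speed centrifugation alone, and the MC+HS group received the same vector after membrane chromatography and high-speed centrifugation, each at 100000000 particles in 10 µL a side. The mock group received Sf9 insect cell medium without baculovirus that had been through the MC+HS purification. No medium taken through HS alone was measured here, so HS against mock differs in both the vector and the purification, and no uninjected brain was analysed here. Mice were sampled at 1 time after injection, so no course in time is given. On each of the 9 arrays, 5 of 5 general neuron markers and all 6 striatal neuron markers named on the array were above the 40th percentile. That level separates tissues weakly, as the T cell marker Cd4 and the monocyte marker Plac8 also passed it on all 9 arrays. On HS replicate 1 the summed signal of the striatal markers was 4276, against 15755 to 21444 on the other 8 arrays, and that of 5 astrocyte markers was 4358, against 19159 to 26935. Other lists fell less there: general neuron markers summed to 31549, against 35014 to 40873, and oligodendrocyte markers to 9986, against 12563 to 17075.

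Type I interferon binds its receptor, the kinases Jak1 and Tyk2 become active, and a complex that holds Stat2 and Irf9 binds a promoter element called the ISRE, which restriction factor genes of many vertebrates carry. Each factor then acts at 1 step. IFITM proteins sit in endosomal and plasma membranes and hinder fusion of enveloped viruses, MX proteins are dynamin-like GTPases that trap viral nucleoproteins, and tetherin, the product of Bst2, holds budding particles at the cell surface. Viperin, the product of Rsad2, turns CTP into a chain-terminating nucleotide, Cmpk2 is a mitochondrial nucleotide kinase, and Samhd1 breaks down deoxynucleotide triphosphates. Baculovirus is an enveloped DNA virus of insects that enters mammalian cells through endosomes without replicating there. Most laboratory mouse strains carry Mx1 and Mx2 alleles that make no working protein, so the transcripts of these genes serve here as readouts of RNA only.

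The promoters are shown because restriction factor genes are known interferon targets and 4 of the 7 windows at hand carry the ISRE letters. All 9 genes matched a RefSeq gene table of GRCm38.p6 by Entrez identifier, and 7 had a RefSeq window of 250 bases before to 50 after the gene start. Mx1 and Mx2 are listed there as transcribed pseudogenes. The ISRE was searched on both strands as GAAANNGAAA, in which N is any base, and 3.44% of the 32851 windows in the table hold it. In the sequences, written 5′ to 3′ on the gene's own strand, capitals mark that match. The first 3 are the 250 bases before the start and the last is the 30 bases just after it.
Bst2, chr8:71537473-71537722, minus strand: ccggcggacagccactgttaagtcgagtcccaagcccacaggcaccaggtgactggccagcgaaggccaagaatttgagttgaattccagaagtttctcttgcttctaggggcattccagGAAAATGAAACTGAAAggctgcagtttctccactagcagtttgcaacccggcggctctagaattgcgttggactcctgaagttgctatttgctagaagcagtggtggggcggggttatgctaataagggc
Rsad2, chr12:26456453-26456702, minus strand: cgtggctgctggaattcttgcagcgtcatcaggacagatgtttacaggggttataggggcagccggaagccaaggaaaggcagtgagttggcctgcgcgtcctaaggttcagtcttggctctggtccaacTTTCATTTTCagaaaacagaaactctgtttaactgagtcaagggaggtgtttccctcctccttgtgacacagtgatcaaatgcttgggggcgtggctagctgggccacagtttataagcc
Ifitm2, chr7:140955962-140956211, minus strand: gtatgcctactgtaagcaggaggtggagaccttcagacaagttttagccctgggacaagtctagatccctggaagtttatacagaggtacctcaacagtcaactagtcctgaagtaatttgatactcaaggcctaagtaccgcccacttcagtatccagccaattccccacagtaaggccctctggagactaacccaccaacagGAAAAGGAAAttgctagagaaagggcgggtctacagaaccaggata
Ifitm3, chr7:141010714-141010743, minus strand: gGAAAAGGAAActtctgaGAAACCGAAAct
In Bst2 a pair of matches overlap by several bases, in Rsad2 the match lies on the opposite strand, and in Ifitm3 a pair lies just past the start. The GAS element, searched as TTCNNNGAA on both strands, was in the Samhd1, Ifitm3 and Bst2 windows, where the Ifitm3 and Bst2 matches overlap an ISRE match, and in 8.3% of all windows. A match describes letters and is no test of binding, and the Ifitm1 and Cmpk2 windows held neither motif, which says only that these letters are not in those bases.

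Levels are given as centred signal, which is the deposited intensity plus 16, scaled so that all arrays share 1 median, and differences as log2 ratios of that signal with the standard error of the limma fit. A gene was called when its p, adjusted by Benjamini-Hochberg over all 28257 probe sets of a comparison, was under 0.05. Of 9 arrays, HS replicate 1 stands apart: it correlated with the rest at a median of 0.757, where the 8 remaining arrays reached 0.956 to 0.979, and the 95th percentile of its centred signals was 1235, against 2907 to 3405. Mock replicate 2 stands apart in the members themselves. Results are therefore given with all 9 arrays and, where it matters, without these arrays. Where HS replicate 1 lies depends on the scaling: overlaps stated for single genes are after median centring, and under quantile normalization HS replicate 1 lay above every mock array in Bst2, Ifitm2, Ifitm3 and Cmpk2 too. As the tissue is bulk, fewer cells of a type and less RNA per cell cannot be told apart.

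All 9 members had a higher mean in both vector groups than in mock, as had 24.4% of all genes in HS and 51.5% in MC+HS. With all 9 arrays, and by the probe set with the highest mean for each gene, Mx1 was the 1 member called in HS against mock and the 1 called in MC+HS against mock, where 0.747% and 0.556% of probe sets were called higher. Of all 14 member probe sets, 3 were called higher in HS and 2 in MC+HS: that of Mx1 and Rsad2 1421009_at in both, and Rsad2 1421008_at in HS. At an unadjusted p under 0.05, 8 of 9 members passed in each comparison, against 6.67% and 4.89% of probe sets in either direction. The median member difference was 1.44 (2.71-fold) for HS and 1.65 (3.15-fold) for MC+HS, while the median over all 13331 genes was -0.23 and 0.01. When HS replicate 1 was left out, limma called 9 of 9 members higher in both comparisons, where 2.97% and 2.51% of probe sets were called higher, and the median member difference was 2.02 (4.06-fold) and 1.65. Without both that array and mock replicate 2, limma called 9 and 8 of 9, against 3.53% and 3.03% of probe sets, and the member not called for MC+HS was Samhd1. With only the 6 arrays compared in each fit, 8 of 9 members were called higher in MC+HS, against 2% of probe sets, and 0 of 9 in HS, against 0.0531%. Both comparisons use the same mock arrays and are not independent of each other.

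**Figure D1:**
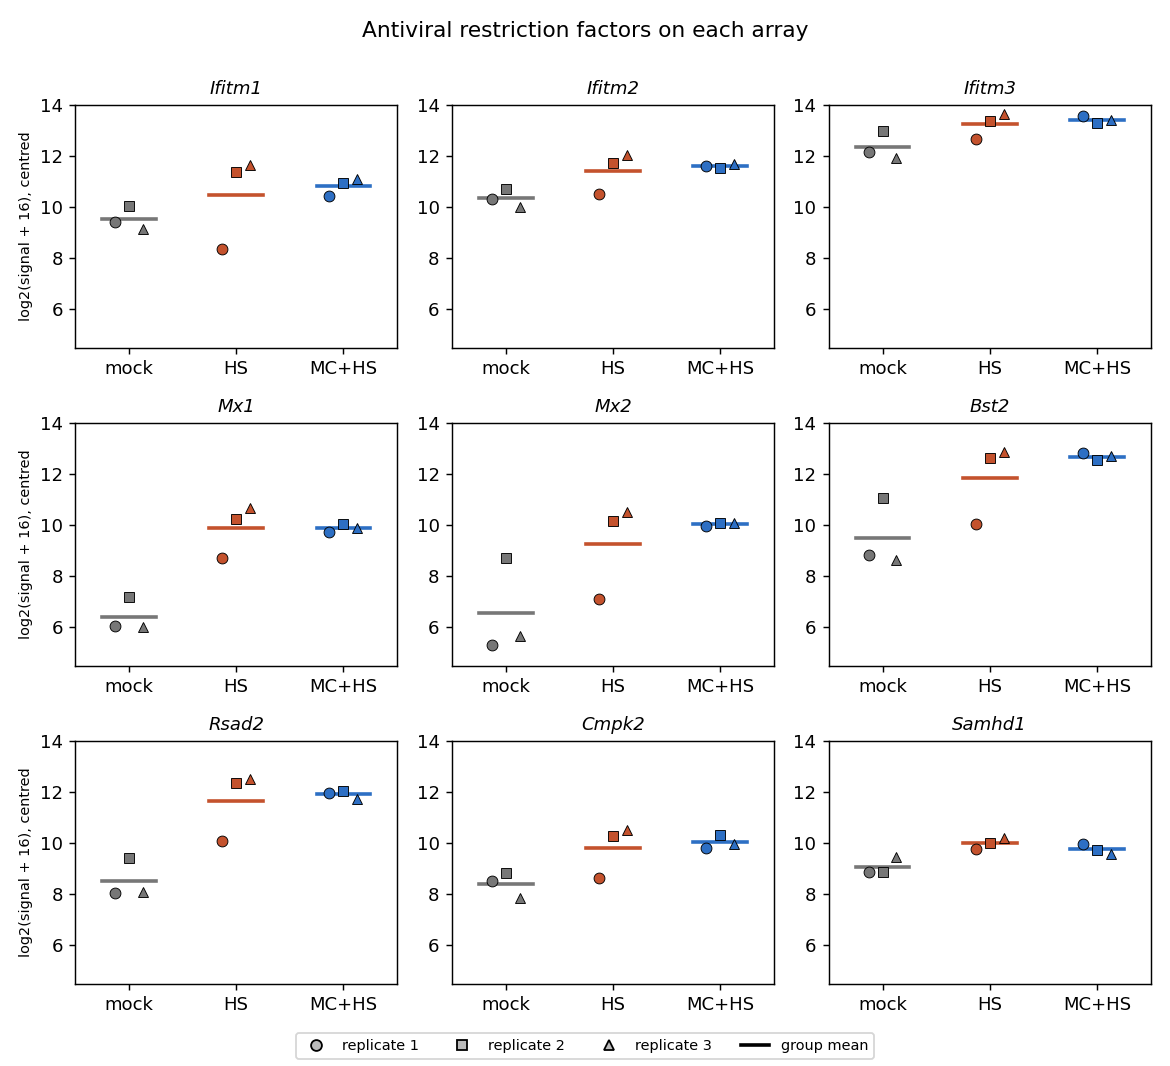
Each panel shows 1 member gene, by the probe set with the highest mean, with log2(signal + 16) after centring on the vertical axis and the mock, HS and MC+HS groups on the horizontal. Points are single arrays, their shape gives the replicate, and bars are group means. HS replicate 1 (circle) sits below the other HS arrays in all 9 genes. Mock replicate 2 (square) sits above the other mock arrays in 8 of 9, and in 38.3% of all genes tested.

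The entry factors had, with Samhd1, the smallest differences from mock of the members, and each was higher on every MC+HS array than on every mock array. Ifitm3, the IFITM protein best known for holding influenza virus in endosomes, gave centred signals of 4579, 8180 and 3870 on mock replicates 1 to 3. It gave 6564, 10700 and 12972 on the HS arrays and 12157, 10133 and 10757 on the MC+HS arrays. HS replicate 1 fell below mock replicate 2, and the other vector arrays lay above every mock array. Ifitm2, its close relative, gave 1260, 1697 and 1031 on mock, 1457, 3409 and 4220 on HS and 3160, 2949 and 3269 on MC+HS. Again only HS replicate 1 overlapped the mock range. Ifitm1, which acts mostly at the plasma membrane, gave 683, 1059 and 567 on mock, 331, 2668 and 3190 on HS and 1403, 1948 and 2225 on MC+HS. HS replicate 1 gave the lowest Ifitm1 signal of the 9 arrays, and HS replicates 2 and 3 the highest.

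In the fit of all 9 arrays none of these genes was called. For HS against mock the differences were 0.88 ± 0.35 in Ifitm3, 1.08 ± 0.40 in Ifitm2 and 0.93 ± 0.76 in Ifitm1 (limma adjusted p = 0.635, 0.588 and 0.635). For MC+HS they were 1.06 ± 0.35, 1.26 ± 0.40 and 1.30 ± 0.76 (limma adjusted p = 0.548, 0.498 and 0.9999). Once HS replicate 1 was left out, all 3 rose in both comparisons. Ifitm1 then rose by 1.97 ± 0.25 in HS, 3.93-fold, at limma adjusted p = 0.000950, and by 1.30 ± 0.22 in MC+HS at 0.00765. Ifitm2 rose by 1.54 ± 0.18 and 1.26 ± 0.16, and Ifitm3 by 1.17 ± 0.25 and 1.06 ± 0.22, at limma adjusted p = 0.000579, 0.00113, 0.0259 and 0.0237. The adjusted p of these genes ranged up to 0.822 in HS and 1 in MC+HS over the alternatives. The Ifitm genes are near-identical in stretches, so probe sets of 1 member can bind RNA of another.

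Mx1 was called with all arrays in both comparisons. It gave centred signals of 66.8, 145 and 64.7 on mock, 425, 1221 and 1629 on HS and 847, 1048 and 938 on MC+HS. The lowest vector array, HS replicate 1, was still above every mock array, and the groups did not overlap. Mx1 rose by 3.47 ± 0.49 in HS, 11.1-fold, and by 3.46 ± 0.49 in MC+HS, 11.0-fold (limma adjusted p = 0.0143 and 0.0203). The 19 alternatives counted for a probe set include the fit without HS replicate 1 and mock replicate 2, chosen after seeing the data. The Mx1 call held in 14 of 19 alternatives in each comparison. Its limma adjusted p ran from 3.68e-08 to 0.135 for HS and 4.38e-08 to 0.135 for MC+HS, the lowest of each from that fit. For HS the call was lost without HS replicate 2 or 3, without mock replicate 1 or 3, and with only the 6 arrays compared, and the Mx1 difference then lay between 3.08 and 3.47. For MC+HS it was lost without any 1 of the MC+HS arrays and without mock replicate 1 or 3. Mx1 was above the 40th percentile on 7 of 9 arrays and Mx2 on 6, so that folds from their dim mock signals depend on the 16 units added to each signal. Over the alternatives, pseudocounts of 1 and 64 among them, the Mx1 difference ranged from 2.92 to 4.42 for HS and from 2.86 to 3.84 for MC+HS.

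Mx2 gave 39.1, 421 and 50.1 on mock, 138, 1146 and 1468 on HS and 1003, 1099 and 1094 on MC+HS. Mock replicate 2 was above HS replicate 1, so that the mock and HS groups overlapped, while the MC+HS arrays lay close together above all mock arrays. With all 9 arrays the differences were 2.71 ± 1.03 for HS and 3.51 ± 1.03 for MC+HS, and neither was called (limma adjusted p = 0.622 and 0.400). Without HS replicate 1, Mx2 rose by 3.79 ± 0.75 and 3.51 ± 0.67 (limma adjusted p = 0.0182 and 0.0158). Leaving out mock replicate 2 as well brought the differences to 4.87 ± 0.17 in HS, 29.3-fold, and 4.59 ± 0.15 in MC+HS, 24.1-fold. Mock replicate 2 had the highest Mx2 signal of the mock group, so that leaving it out raises the difference by construction, and the 2 mock signals that remain include the 16 units added.

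Bst2, the release factor, had a mean several times that of mock in both vector groups. It gave centred signals of 453, 2116 and 396 on mock, 1048, 6424 and 7455 on HS and 7166, 6005 and 6604 on MC+HS. HS replicate 1 was below mock replicate 2, and the other vector arrays lay well above every mock array. The difference was 2.35 ± 0.82 for HS and 3.18 ± 0.82 for MC+HS, neither called (limma adjusted p = 0.543 and 0.254). Bst2, with HS replicate 1 left out, rose by 3.26 ± 0.54, 9.56-fold, in HS and by 3.18 ± 0.48, 9.08-fold, in MC+HS (limma adjusted p = 0.00578 and 0.00354). Bst2 is also a surface marker of plasmacytoid dendritic cells, and of the 6 markers of that cell type Ccr9 was above the 40th percentile on none of the 9 arrays. The summed signal of that list was 4461 to 4973 on mock, 3679 to 4420 on HS and 3708 to 4549 on MC+HS, and 0 of its 5 measured genes were called higher in either comparison by limma, with or without HS replicate 1. At an unadjusted p under 0.05, 2 of the 5 passed in HS and 1 in MC+HS with all arrays, and 1 of the 5 had a positive difference in each. Siglech was called lower in both comparisons without HS replicate 1, at -0.97 ± 0.16 and -1.09 ± 0.14 (limma adjusted p = 0.00530 and 0.00131). Several genes of that list, such as Pacsin1 and Siglech, are also expressed by neurons or microglia. The part of plasmacytoid dendritic cells in the Bst2 differences was not tested.

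Rsad2 was measured by 3 probe sets, which were each higher on every vector array than on every mock array. The one with the highest mean, 1436058_at, which stands for the gene in the counts, gave 267, 687 and 273 on mock, 1099, 5185 and 5866 on HS and 3960, 4267 and 3444 on MC+HS. Another, 1421009_at, gave 134, 202 and 129 on mock, 1312, 1946 and 2276 on HS and 1272, 1415 and 1242 on MC+HS, and the third, 1421008_at, gave 70.5, 114 and 132 on mock, 523, 450 and 463 on HS and 217, 341 and 267 on MC+HS. HS replicate 1 was far below the other HS arrays on 1436058_at and near or above them on 1421008_at. On 1421009_at Rsad2 rose by 3.57 ± 0.26 in HS, 11.9-fold, and by 3.11 ± 0.26 in MC+HS, 8.63-fold (limma adjusted p = 0.00129 and 0.00396). These calls held in 19 of 19 alternatives in both comparisons, with limma adjusted p from 1.92e-08 to 0.0371 for HS and 3.23e-08 to 0.0431 for MC+HS. The lowest of each came from the fit without HS replicate 1 and mock replicate 2, chosen after seeing the data. On 1421008_at the rise in HS was 2.23 ± 0.25 (limma adjusted p = 0.00604, and from 1.11e-05 to 0.0642 over 19 alternatives), and the MC+HS difference of 1.41 ± 0.25 was not called (limma adjusted p = 0.0535, and from 0.000308 to 0.413). Probe set 1436058_at had larger errors, with 3.13 ± 0.63 and 3.40 ± 0.63 (limma adjusted p = 0.0790 and 0.0612), and was called in 4 of 19 alternatives for HS and 5 of 19 for MC+HS. Among these was the fit without HS replicate 1, at 3.90 ± 0.33 and 3.40 ± 0.29 (limma adjusted p = 7.51e-05 and 0.000114).

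Cmpk2 lies next to Rsad2 on mouse chromosome 12. The probe set that stands for it gave 364, 451 and 230 on mock, 403, 1249 and 1483 on HS and 903, 1294 and 1005 on MC+HS, and its other probe set was too dim to be tested. HS replicate 1 lay inside the mock range and the 5 remaining vector arrays above it. The differences were 1.44 ± 0.47 and 1.65 ± 0.47 for HS and MC+HS, not called with all 9 arrays (limma adjusted p = 0.485 and 0.378). In the fit without HS replicate 1, Cmpk2 rose by 2.02 ± 0.25 and 1.65 ± 0.22 (limma adjusted p = 0.000796 and 0.00149). Those rises were smaller than the ones of its neighbour Rsad2 on 2 probe sets, 3.90 and 3.40 on 1436058_at and 3.80 and 3.11 on 1421009_at. On 1421008_at Rsad2 rose by 2.16 and 1.41, near Cmpk2 in HS and below it in MC+HS, so the order depends on the probe set. The difference between the genes was not tested.

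By the probe set with the highest mean for each gene, Samhd1 had the smallest rises of the members without HS replicate 1, and its probe sets disagreed. The one with the highest mean gave 468, 472 and 707 on mock, 874, 1039 and 1173 on HS and 991, 852 and 767 on MC+HS, with no overlap between vector and mock arrays. Its differences of 0.92 ± 0.23 and 0.68 ± 0.23 were not called with all arrays (limma adjusted p = 0.216 and 0.623), and both were called without HS replicate 1, at 1.04 ± 0.18 and 0.68 ± 0.16 (limma adjusted p = 0.00878 and 0.0481). Samhd1 in MC+HS was no longer called when mock replicate 2 was left out too, at 0.59 ± 0.18 (limma adjusted p = 0.128). Probe set 1418131_at gave 346, 465 and 337 on mock, 134, 1037 and 1220 on HS and 873, 860 and 823 on MC+HS, so that HS replicate 1 was the lowest array and the other vector arrays were above all mock arrays. Its differences were 0.55 ± 0.70 and 1.17 ± 0.70, and without HS replicate 1 they were 1.57 ± 0.15 and 1.17 ± 0.13 (limma adjusted p = 0.000150 and 0.000589 in the second fit). The 2 probe sets that the annotation ties to Samhd1 without an accession, 1420272_at and 1420273_x_at, differed from each other. Probe set 1420272_at gave 185, 257 and 97.2 on mock, 638, 271 and 288 on HS and 177, 176 and 222 on MC+HS, with every HS array above every mock array, and 1420273_x_at gave 371, 408 and 589 on mock, 443, 308 and 328 on HS and 327, 318 and 302 on MC+HS, with every MC+HS array below every mock array. Their HS differences were 1.14 ± 0.40 and -0.33 ± 0.21 (limma adjusted p = 0.550 and 0.635) and their MC+HS differences 0.19 ± 0.40 and -0.50 ± 0.21 (limma adjusted p = 0.9999 and 0.954). Neither was called in any of the 3 comparisons under any alternative in which it passed the filter. Which RNA they bind is not settled by the annotation.

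The series set the purifications against each other, and no member probe set differed between them at the adjusted threshold. In MC+HS against HS limma called 0 of 9 members and 0 of 28257 probe sets (0% of probe sets). At an unadjusted p under 0.05, 0 of the 9 probe sets with the highest mean passed, and 3% of all probe sets. Of the other 5 member probe sets 2 passed, Rsad2 1421008_at at -0.82 ± 0.25 and Samhd1 1420272_at at -0.95 ± 0.40, with every MC+HS array below every HS array (limma adjusted p = 0.728 and 0.728). Rsad2 1421009_at was at -0.46 ± 0.26, whereas 1436058_at, at 0.27 ± 0.63, had the opposite sign. The 95% intervals of the members were wide. They were -0.61 to 0.97 for Ifitm3, -1.11 to 1.09 for Mx1, -1.16 to 1.70 for Rsad2 and -1.53 to 3.12 for Mx2. Changes over 1.5-fold in either direction lie inside each of these. The Samhd1 interval, -0.77 to 0.29, holds a fall of that size and no such rise. Of the 9 differences by the probe set with the highest mean, 7 were above 0 with all arrays, as were 79.5% of all genes. Their median was 0.22, while the median of all genes was 0.23. The sign turned without HS replicate 1, when 35.3% of all genes were above 0. All 9 member differences were then below 0, with a median of -0.35 against -0.05 for all genes. They ran from -0.68 in Ifitm1 to -0.07 in Bst2, and in Mx1, Mx2, Ifitm1, Ifitm2, Rsad2 and Samhd1 every MC+HS array lay below both remaining HS arrays. That pattern was shared by 16.8% of all probe sets. The 95% intervals narrowed to -1.22 to -0.13 in Ifitm1, -0.67 to 0.11 in Ifitm2, -0.75 to 0.05 in Samhd1 and -1.24 to 0.07 in Mx1. Limma again called 0 of 9 members (0.00357% of probe sets), with Ifitm1 at the smallest adjusted p of 0.571 and as the 1 of the 9 probe sets under an unadjusted p of 0.05. Of the other member probe sets, Rsad2 1421009_at at -0.69 ± 0.18, Rsad2 1421008_at at -0.76 ± 0.26 and Samhd1 1418131_at at -0.40 ± 0.15 also passed unadjusted (limma adjusted p = 0.403, 0.558 and 0.571). With 2 HS arrays left, this direction rests on few mice.

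**Figure D2:**
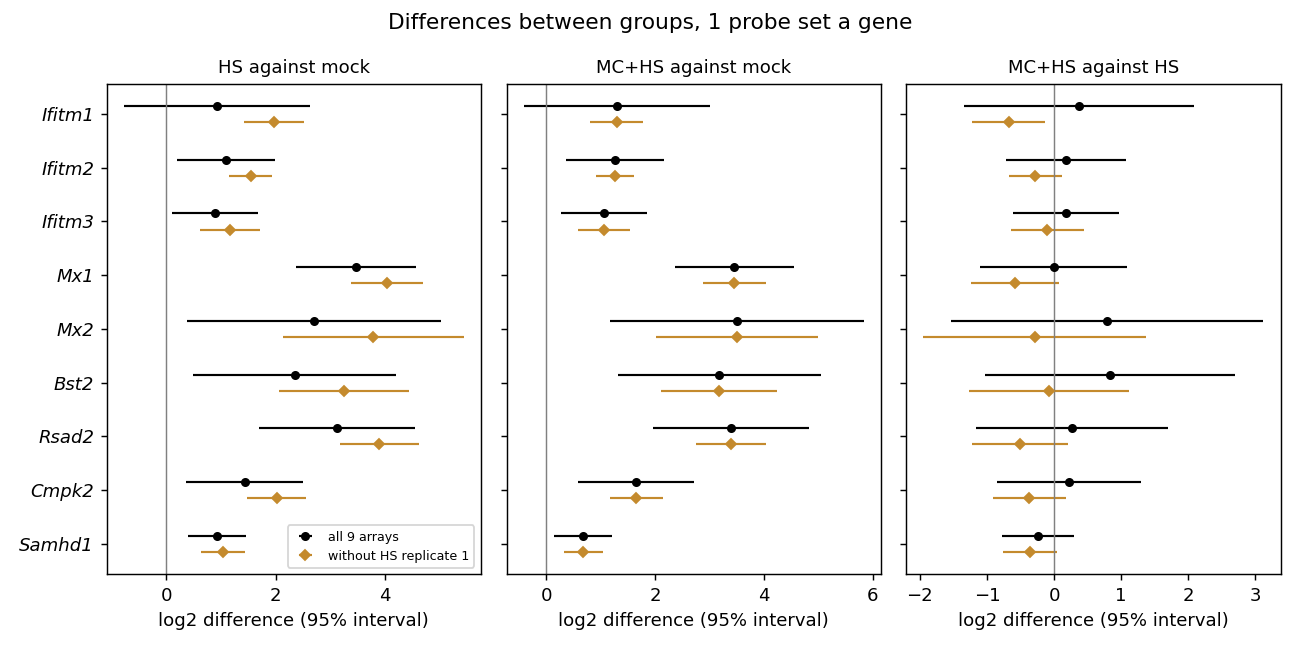
Points are log2 differences between groups for 1 probe set per gene, and lines are 95% intervals from limma, with all 9 arrays (black circles) and without HS replicate 1 (brown diamonds). Without that array the intervals against mock no longer reach 0 in any of the 9 genes. All 9 points of MC+HS against HS then lie below 0, where 35.3% of all genes lie above 0.

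Counted by arrays alone and after median centring, all 3 HS arrays were above all mock arrays in 3 of 9 members (Mx1, Rsad2 and Samhd1), as in 4.65% of probe sets. After quantile normalization they were so in 7 of 9, with Mx2 and Ifitm1 the exceptions, as in 8.45% of probe sets. All 3 MC+HS arrays were above all mock arrays in 9 of 9, as in 8.79% of probe sets. Taking both vector groups together, every vector array exceeded every mock array in 3 of 9 members and in 2.59% of probe sets. Without HS replicate 1 that held in 9 of 9 members and 6.9% of probe sets, and the remaining HS arrays were above mock in 9 of 9 members and 22.1% of probe sets. With HS replicate 1 kept and mock replicate 2 left out it held in 8 of 9 members and 4.21% of probe sets, and Ifitm1 was the exception.

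The library labelled mock replicate 2 had higher signals than both other mock arrays in 8 of 9 members, and in 38.3% of all 13331 genes. Whether the sample of mock replicate 2 was as labelled was not tested. Against the mean of the other mock arrays it was 3.25 higher in Mx2 (9.51-fold), 2.32 in Bst2 (4.99-fold), 1.35 in Rsad2 and 1.14 in Mx1 on the log2 scale. Ifitm3 was 0.96 higher, Ifitm1 0.77, Cmpk2 0.64 and Ifitm2 0.57, and Samhd1 was 0.28 lower, at a difference of -0.28. More than 1 log2 unit was exceeded by 4 of 9 members (44.4%) and by 140 of 13331 genes (1.05%). It was also exceeded by 10 of 18 other antiviral effectors, a list that holds the Oas and Ifit genes, and by 3 of 14 interferon signalling genes. The same array had the highest summed monocyte marker signal of the mock group, 1267 against 471 and 422, and its NK cell marker sum of 430 was close to the 389 and 423 of the others. The part of infiltrating cells in these values was not tested. The MC+HS mean stood above the same base by 4.59 in Mx2 and 3.96 in Bst2, which is more than mock replicate 2 in both.

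**Figure D3:**
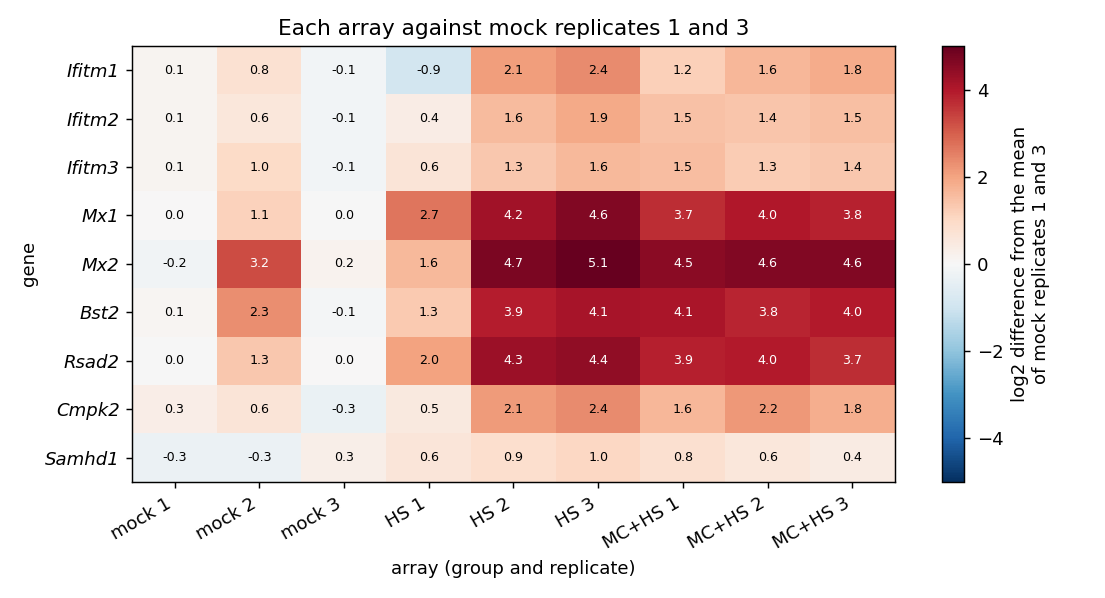
Colours and numbers are the log2 difference of each array (columns) from the mean of mock replicates 1 and 3, for the 9 member genes (rows). Mock replicate 2 reaches 3.25 in Mx2 and 2.32 in Bst2, and HS replicate 1 is the palest vector array in every gene except Samhd1, with Ifitm1 at -0.91.

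Some interferon signalling genes rose beside the members. Of 14 measured interferon signalling genes, 2 rose in both comparisons, and the list medians were 0.31 and 0.27. They were Irf7, the factor that amplifies interferon production, by 2.64 ± 0.39 and 2.56 ± 0.39 (limma adjusted p = 0.0185 and 0.0281), and Irf9, the DNA-binding partner of Stat2, by 1.90 ± 0.32 and 1.82 ± 0.32 (limma adjusted p = 0.0352 and 0.0494). Usp18, which dampens the receptor, was at 2.84 ± 0.62 and 3.30 ± 0.62, and Stat2 at 1.16 ± 0.40 and 1.32 ± 0.40. Neither was called with all arrays (limma adjusted p = 0.109 and 0.0613 for Usp18, 0.521 and 0.437 for Stat2). Limma called 6 and 4 of 14 without HS replicate 1, Usp18 and Stat2 among them in both comparisons. Of 18 other antiviral effectors 7 rose in HS and 6 in MC+HS, with medians of 2.12 and 2.04, and 14 and 15 without HS replicate 1. Zbp1, a sensor of Z-form nucleic acid, rose by 3.74 ± 0.49 and 3.31 ± 0.49, and Oas2, which makes the activator of RNase L, by 2.96 ± 0.39 and 2.80 ± 0.39 (limma adjusted p = 0.0115, 0.0248, 0.0111 and 0.0194). Ch25h, whose product 25-hydroxycholesterol blocks fusion of enveloped viruses, rose by 1.94 ± 0.24 and 1.73 ± 0.24 (limma adjusted p = 0.00940 and 0.0203).

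Of the members' relatives by structure or chemistry, Ifitm6 was the 1 gene called with all arrays. Of 15 genes of nucleotide supply limma called 0 in both comparisons, and 0 at an unadjusted p under 0.05, with list medians of -0.12 and 0.06. It again called 0 without HS replicate 1, when 1 gene passed in each comparison unadjusted. Cmpk1, the cytosolic counterpart of Cmpk2, was at -0.91 ± 0.65 and -0.08 ± 0.65, and Tk1, the cytosolic thymidine kinase, at 1.14 ± 0.63 and 0.74 ± 0.63. Of 7 dynamin relatives of the Mx proteins limma called 0, and 0 unadjusted, with medians of -0.49 and 0.06. The HS values of that list moved with HS replicate 1: without it the median was 0.09, and Dnm1, the neuronal dynamin, went from -0.96 to 0.16. Of 3 measured other Ifitm genes, Ifitm6, which lies next to Ifitm3, rose by 2.20 ± 0.17 and 1.89 ± 0.17 (limma adjusted p = 0.00139 and 0.00398). Ifitm7 was at 0.07 ± 0.27 and 0.31 ± 0.27, and Ifitm10 at -0.10 ± 0.26 and 0.04 ± 0.26.

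**Figure D4:**
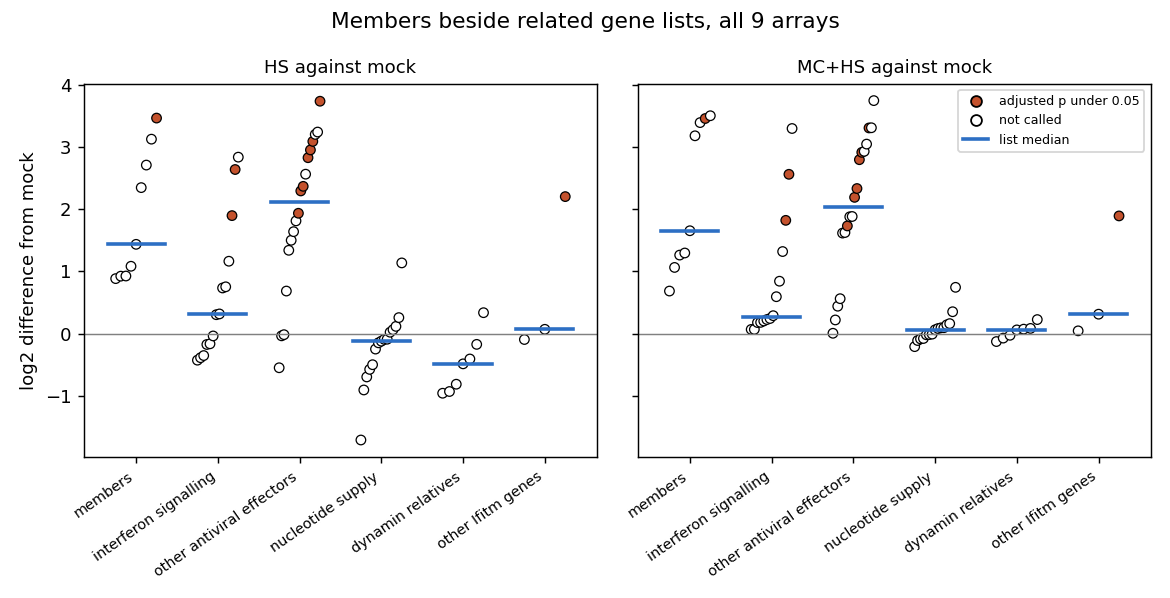
Circles are genes, with the log2 difference from mock on the vertical axis for HS (left) and MC+HS (right), filled where limma's adjusted p was under 0.05, and blue lines are list medians. The members have medians of 1.44 and 1.65, above the interferon signalling list at 0.31 and 0.27 and below the other antiviral effectors at 2.12 and 2.04.

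Members differed in how far their log2 signals lay from the median member profile. Around the median profile of the 9 members, taken over 9 arrays as log2 signal minus each gene's mock mean, Cmpk2 lay closest, with a root mean square distance of 0.161, and Mx1 farthest, at 1.54. The distance is not scaled, so it grows with the size of a rise and does not compare shapes alone. Cmpk2 had the median member differences, 1.44 and 1.65, and those of Mx1 were larger, 3.47 and 3.46. The 5 genes outside the list nearest to that profile were Zc3hav1, an antiviral zinc finger protein, at 0.127, Cp, the copper-binding ceruloplasmin, at 0.166, H2-T24 at 0.18, Trim25, a ubiquitin ligase of RNA sensing, at 0.183, and Capg, an actin-capping protein, at 0.184. Without HS replicate 1, over 8 arrays, the nearest were Ptprc, Cp, Epsti1, Zc3hav1 and Cebpd, so that 2 of 5 were shared.

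Immune cell markers moved with the vector groups beside the members. The summed monocyte signal was 422 to 1267 on mock, 1378 to 4461 on HS and 3207 to 3534 on MC+HS, and Chil3 and Ccr1 were called higher in both comparisons. The NK cell sum was 389 to 430 on mock, 1153 to 2702 on HS and 984 to 2084 on MC+HS, with Gzma and Gzmb called in both, while Ncr1 was above the 40th percentile on none of the 9 arrays. Neutrophil markers summed to 672 to 727 on mock, 1101 to 1465 on HS and 971 to 1178 on MC+HS, with S100a9 called higher in both comparisons and S100a8 in HS. Of the 4 neutrophil markers measured, 3 had a positive difference in each comparison, and Camp was above the 40th percentile on no array. T cell markers summed to 690 to 800, 612 to 717 and 591 to 667, and Cd3d, Cd3g and Cd8b1 were above the 40th percentile on no array. B or plasma cell markers summed to 252 to 319, 200 to 601 and 285 to 296, with Cd79a above it on no array. Microglia markers summed to 3812 to 4508 on mock, 2342 to 3371 on HS and 2678 to 3449 on MC+HS, with Gpr34 called lower in both comparisons and P2ry12 in MC+HS. Endothelial markers summed to 2876 to 3375, 2529 to 6143 and 4660 to 5316. Monocytes and other leukocytes express IFITM genes and Samhd1 at rest, and the part of these cells in the members' rises was not tested.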

How the data were processed

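RNA from 9 mouse brain samples was hybridised to 1 array each. The authors deposited 1 linear intensity per probe set and array; the submitters' processing notes name GCOS 1.4.0.036, and summarisation, scaling, detection calls and genome build are not given in the sources used here. Total RNA was cleaned on a column and labelled as biotin cRNA per the labels' protocols. The labels call the replicates biological, which is read here as separate mice.

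Signals were taken as log2(signal + 16) and centred so that all 9 arrays had the same median (the largest shift was -0.66, for HS replicate 3). Of 45101 probe sets, 64 were controls, and the rest were tested if at least 3 arrays had them above that array's 40th percentile, which kept 28257. Probe sets with several symbols (932) or none (9211) name no gene. The probe set with the highest mean stands for a gene. Fold changes of dim genes are understated by the added 16 units. The number of arrays limits the precision.

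Groups were compared in R 4.3.3 by limma 3.58.1 and statmod 1.5.0, using lmFit and trended eBayes, in 1 fit of 9 arrays by group, two-sided, in 3 comparisons, with Benjamini-Hochberg adjustment over the probe sets of each. The scripts were tested on simulated data. Alternatives were pseudocounts of 1 and 64, no filter or the 60th percentile, quantile normalization, no trend, gene-by-gene array quality weights, a replicate block, only the 6 arrays compared, the member probe set with the lowest mean, and each array left out. A fit without both HS replicate 1 and mock replicate 2 was added after seeing the data. Alternatives counted for a single probe set include that fit and not the one by lowest mean.

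The members and lists were chosen with earlier results of these data known. Named genes are the members, up to 4 genes of each related list with the smallest p in HS against mock, and the 5 genes nearest to the median member profile. Promoter windows and gene positions are from RefSeq, GRCm38.p6.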

Additional observations from a re-analysis of the deposited data

How the results depend on the processing

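Differences of all 9 members from mock, by the probe set that stands for each, were positive in both vector groups under every alternative run. The number called was less stable. With all 9 arrays 1 of 9 members was called in HS, 1 in MC+HS and 0 in MC+HS against HS. Quantile normalization gave 4 and 3 in the first 2 comparisons, array quality weights 9 and 9, only the 6 arrays compared 0 and 8, and the lowest-mean probe sets 2 in HS. Leaving out HS replicate 1 and mock replicate 2 together, chosen after seeing the data, gave 9 and 8. Leaving out 1 array gave 0 to 9 in HS, 0 to 9 in MC+HS and 0 to 0 in MC+HS against HS, with 9 reached only without HS replicate 1. Over all probe sets 219, 164 and 0 were called in either direction. Counts were 67 to 930, 10 to 934 and 0 to 1 with 1 array left out, 136 in HS with the 60th percentile, 1866, 1629 and 170 with quality weights, 15 and 727 with only 6 arrays, and 1065, 984 and 1 without both arrays. The replicate block left the members at 1, 1 and 0 and gave 148, 95 and 0 probe sets. Deviations of same-numbered arrays from their group means correlated at -0.168 to 0.287. Differently numbered arrays were not set beside them, so whether the numbers pair the mice is not settled.

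In MC+HS against HS the sign of 9 of 14 member probe sets was not stable, and the cause was not tested. The other 5 stayed negative in every alternative run, from -0.61 to -0.14 in Samhd1 1434438_at, -0.84 to -0.29 in Rsad2 1421009_at, -1.10 to -0.64 in Rsad2 1421008_at, -1.27 to -0.52 in Samhd1 1420272_at and -0.46 to -0.0100 in Samhd1 1420273_x_at. Mx1 was 0.0158 with a pseudocount of 1. Quantile normalization gave -0.21 in Ifitm2, -0.13 in Rsad2 1436058_at and -0.0383 in Cmpk2. Quality weights gave -0.19 in Mx2, -0.0702 in Bst2, -0.51 in Ifitm1, -0.23 in Ifitm2, -0.10 in Ifitm3, -0.47 in Rsad2 1436058_at, -0.24 in Cmpk2 and -0.36 in Samhd1 1418131_at. With arrays left out, the differences ran from -0.58 to 0.38 in Mx1, -0.29 to 1.42 in Mx2, -0.074 to 1.34 in Bst2, -0.68 to 0.96 in Ifitm1, -0.28 to 0.49 in Ifitm2, -0.10 to 0.39 in Ifitm3, -0.51 to 0.70 in Rsad2 1436058_at, -0.37 to 0.57 in Cmpk2 and -0.40 to 1.19 in Samhd1 1418131_at, the lowest without HS replicate 1, with or without mock replicate 2, and the highest without HS replicate 3. Against mock, only Samhd1 probe sets that do not stand for the gene changed sign: 1418131_at ran from -0.0213 to 1.72 in HS, and 1420272_at from -0.20 to 0.50 in MC+HS, at -0.0285 with quality weights.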

Other observations

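The probe sets of Cmpk2 and Samhd1 that failed the filter were dim throughout. Cmpk2 1422095_a_at was above the 40th percentile on 1 of 9 arrays and Samhd1 1444064_at on 0 of 9, and neither entered a test.

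After quantile normalization HS replicate 1 lay elsewhere among the arrays than after median centring. It gave 2081 in Samhd1, above the 992 and 1062 of the other HS arrays, whereas with median centring it gave 874, below their 1039 and 1173. In Ifitm2 it gave 3599, between the 3221 and 3718 of the other HS arrays and above the highest mock signal of 1624. Its Ifitm3, Cmpk2 and Bst2 signals of 9930, 767 and 2539 were below the other HS arrays and above every mock array, the highest of which were 8134, 451 and 2016. In Mx2 and Ifitm1 it stayed below mock replicate 2, at 121 against 423 and at 570 against 1025.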
